A study of Mus musculus with 16 samples.

Results

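The genes of the mouse major histocompatibility complex (MHC) and of antigen presentation were followed through kidney and liver RNA of aged mice. They were taken by name, as every gene whose symbol starts with H2- together with *B2m*, *Cd74*, *Ciita*, *Nlrc5*, *Tap1*, *Tap2* and *Tapbp*. The count tables held 51 such symbols, 10 of them had 0 counts in all 16 libraries and were dropped, and 41 of the 24984 genes remained. Of these, 3 are classical class I (class Ia) heavy chains, 4 are the light chain and peptide-loading genes, 21 are non-classical class I genes and class I pseudogenes (grouped here as class Ib), 10 belong to class II, and 2 are regulators. The last, *H2-Ke6*, encodes a steroid dehydrogenase and carries the H2 prefix for its place in the complex. In the GENCODE M21 annotation 36 of them lie on chromosome 17.

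The mice were female wild-type C57BL/6 animals, labelled as 24 months old, injected into the tail vein with AAV8, a serotype of adeno-associated virus used to carry genes into tissue. Its genome carried a short hairpin RNA against *Fos* (shFos group) or a non-targeting hairpin (NT group), so that both groups had been exposed to virus. By the methods, that age was the age at injection and tissues were collected later. There were 16 RNA-seq libraries, 4 for each organ and treatment, with 14194543 to 15534665 reads counted on genes in the kidney libraries and 16652150 to 18300277 in those of liver. Whole organs were sequenced, so fewer cells of a type and less RNA per cell cannot be told apart.

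*Fos*, the targeted gene, had 6.70, 5.25, 4.23 and 5.28 CPM (read counts scaled for library size, here within the organ) in NT kidneys and 2.57, 4.12, 3.93 and 2.30 in shFos kidneys. The kidney groups did not overlap (log2 fold change -0.73, adjusted p = adjusted p = 0.0955,  quasi-likelihood test, Benjamini-Hochberg adjusted over all genes). The liver groups did overlap, with 2.51 ± 1.08 CPM in NT and 1.81 ± 0.637 in shFos (mean ± SD, n = 4 here and below; log2 fold change -0.47, adjusted p = 0.778). The organs matched their labels, since 8 kidney marker genes summed to 11113 to 14602 CPM in NT kidneys and 0.807 to 1.35 CPM in NT livers. NT replicate 4 stood apart from the other NT libraries in both organs over all genes, where the chi-square of a pair divided by its degrees of freedom was 67.2 to 71.6 in kidney and 357 to 461 in liver, against 7.5 to 13.7 and 43.1 to 64.2 among replicates 1 to 3. Results that rest on it are given with and without it, except the correlations with *H2-Aa*.

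MHC class I molecules sit on almost all nucleated cells and show peptides from inside the cell to CD8 T cells. A heavy chain (*H2-K1*, *H2-D1*) pairs with the light chain *B2m*, and peptides reach it in the endoplasmic reticulum through the transporter Tap1-Tap2 with the help of tapasin (*Tapbp*). Class II molecules (*H2-Aa* with *H2-Ab1*) show peptides from taken-up material to CD4 T cells, mainly on dendritic cells, macrophages and B cells, and mature with the invariant chain *Cd74* and the peptide exchange factor H2-DM, which H2-DO restrains. *Ciita* is the master regulator of class II transcription and *Nlrc5* its counterpart for class I. Neither binds DNA on its own: both dock on factors bound to short boxes of the proximal promoter, among them the Y box (bound by NF-Y) and the X2 box (bound by CREB and ATF factors). *Fos* binds the AP-1 site with a *Jun* partner. C57BL/6 mice lack a working H2-Ea gene, and *H2-Ea-ps* was among the symbols with 0 counts.

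The promoter letters behind this are shown for 6 genes with a Y box near the start and for 3 class I heavy chains, to make visible what class I and class II genes share and where the liver gene *H2-Q10* differs. The sequences are from RefSeq on GRCm38.p6, written 5′ to 3′ in the direction of the gene, and capitals mark the Y box (ATTGG, or CCAAT on the other strand) and the X2 core (TGACG, or CGTCA on the other strand).
H2-Aa, chr17:34287857-34287916, - strand: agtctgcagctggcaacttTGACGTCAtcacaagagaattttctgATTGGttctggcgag
H2-Eb1, chr17:34305763-34305822, + strand: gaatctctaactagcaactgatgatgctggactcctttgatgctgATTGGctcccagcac
H2-DMb1, chr17:34153085-34153144, + strand: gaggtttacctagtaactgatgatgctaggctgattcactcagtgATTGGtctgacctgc
H2-Ob, chr17:34238803-34238862, + strand: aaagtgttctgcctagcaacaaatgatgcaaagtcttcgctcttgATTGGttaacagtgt
H2-Oa, chr17:34092291-34092350, + strand: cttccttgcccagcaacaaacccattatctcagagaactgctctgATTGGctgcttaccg
B2m, chr2:122147589-122147648, + strand: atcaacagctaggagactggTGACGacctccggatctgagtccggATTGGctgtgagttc
H2-K1, chr17:34000306-34000392, - strand: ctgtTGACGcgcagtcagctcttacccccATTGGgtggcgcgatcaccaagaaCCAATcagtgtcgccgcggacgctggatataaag
H2-D1, chr17:35262988-35263074, + strand: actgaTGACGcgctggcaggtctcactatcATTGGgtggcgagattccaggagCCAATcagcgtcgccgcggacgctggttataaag
H2-Q10, chr17:35469981-35470067, + strand: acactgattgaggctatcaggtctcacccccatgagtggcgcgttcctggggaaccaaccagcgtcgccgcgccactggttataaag

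RefSeq promoter windows of 300 bases (250 before the start and 50 from it on) were found for 29 of the 41 genes. A Y box on either strand was present in 26 of the 29, against 37.4% of 32851 windows of all genes, and in 8 of 8 class II genes with a window. In the written direction and 30 to 80 bases before the start it was present in 5 of those 8, against 6.34% of all windows. In *H2-Aa* it began 48 bases before the start and in *B2m* 53 bases before it. The X2 core stood in 10 of the 29 (20.8% of all windows), among them *H2-K1*, *H2-D1*, *H2-Q4*, *H2-Aa*, *B2m* and *Tap1*. By class these were 2 of 2 class Ia genes and 1 of 8 class II genes, *H2-Aa*. The AP-1 site TGANTCA, searched on both strands, was present in 2 of the 29, *H2-DMb1* and a second window of *H2-DMa*, against 7.81% of all windows. The interferon-stimulated response element was present in 3 of the 29, *B2m*, *H2-T22* and *H2-T23*, against 3.44% of all windows. The window of *H2-Q10* held none of the 4 motifs, which says only that these letters are not in it.

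In NT mice the class I chains *B2m* and *H2-K1* and the class II chains *H2-Aa*, *H2-Ab1* and *Cd74* were abundant, each above at least 98.9% of the genes tested in kidney and 96.1% in liver. Levels were compared between genes as CPM per kilobase of exon. In kidney the highest were *B2m* (1211 ± 637), *Cd74* (483 ± 303), *H2-K1* (418 ± 225), *H2-Ab1* (358 ± 254) and *H2-Aa* (358 ± 227). The SDs of *Cd74*, *H2-K1*, *H2-Ab1* and *H2-Aa* were larger than the distances between them. In liver the order was *B2m* (2738 ± 1227), *H2-K1* (809 ± 341), *H2-Q10* (633 ± 208) and *Cd74* (187 ± 184), and *H2-K1* and *H2-Q10* differed by less than their SDs. *H2-D1* lay below *H2-K1*, with 77.7 ± 32.6 CPM per kilobase in kidney and 107 ± 39.8 in liver. The regulators were much lower, with 3.20 CPM per kilobase of *Nlrc5* and 1.44 of *Ciita* in kidney, and 4.88 and 0.498 in liver.

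Livers of NT mice had more class I transcript than kidneys. The organs were compared in a single fit of all 16 libraries, on CPM scaled over both organs. Of 33 genes tested, 13 differed, 11 higher and 2 lower in liver. Over all 15421 genes 64.7% differed, 30.2% higher and 34.4% lower, so that the share of genes that differed was lower here than in the background. *B2m* had 395 to 1271 CPM in NT kidneys and 1598 to 5227 in NT livers, which do not overlap, with a log2 difference of 2.18 (adjusted p = 8.37e-05, edgeR quasi-likelihood test, Benjamini-Hochberg). *H2-K1* had 318 to 866 CPM in kidneys and 1409 to 3074 in livers (log2 difference 1.95, adjusted p = 1.03e-04). *H2-D1* had 86.2 to 185 and 227 to 487 CPM (log2 difference 1.46, adjusted p = 1.59e-04). *Nlrc5*, the class I regulator, was also higher in liver, by 1.61 on the log2 scale, from 18.3 ± 11.7 to 56.0 ± 26.0 CPM (adjusted p = 0.00205), although its highest kidney lay above its lowest liver (8.31 to 35.2 and 28.2 to 86.1 CPM). Tapasin was higher by 0.82 (adjusted p = 0.00722), also with overlapping ranges.

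NT kidneys and livers of the same replicate number deviated together (correlations 0.205 to 0.386), and a fit of the 8 NT libraries with the number as a replicate block treats them as paired. In that fit 17 of 32 genes tested differed, against 62.6% of all genes, and 12 of the 13 above were among them. *H2-Oa* was too low to be tested there. The paired fit added *Tap1* (log2 difference 0.78, adjusted p = 0.00656, against 0.96, 0.223 in the same 8 libraries without the block), *Tap2* (0.43, 0.0113 against 0.48, 0.229) and the class Ib gene *H2-Q4* (0.65, 0.0194 against 0.67, 0.140), all higher in liver, and *H2-DMb2* (-1.45, 0.0281 against -1.49, 0.178) and *H2-Ob* (-1.11, 0.0226 against -1.07, 0.352), both lower. In it 4 of 4 light chain and loading genes and both class Ia genes were higher in liver. Scaling by the upper quartile moved the median of all genes from -0.054 to -0.21, and the same 13 genes differed under it. The joint TMM factors were 0.626 to 0.783 in NT livers and 1.43 to 1.48 in NT kidneys, which raises liver values against kidney values. Some genes called higher in liver had the higher mean in kidney on each organ's own scale. These were *Tap1* (48.0 and 47.1 CPM in liver), *Tap2* (56.7 and 40.0), *H2-Q4* (90.1 and 72.4), *Tapbp* (143 and 127) and *H2-Ke6* (94.8 and 68.4). The direction of these genes between organs therefore depends on the joint scaling. *B2m*, *H2-K1* and *H2-D1* kept the higher mean in liver on that scale, but their ranges overlapped. They were 546 to 1825 CPM in kidney and 1128 to 3703 in liver for *B2m*, 438 to 1242 and 994 to 2178 for *H2-K1*, and 119 to 266 and 162 to 345 for *H2-D1*.

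The widest gap between the organs belonged to class Ib. *H2-Q10* (ENSMUSG00000067235.14, chromosome 17, 35470089 to 35474563, + strand in GRCm38), a class I gene known to be secreted by hepatocytes, had 1669, 1538, 1053 and 784 CPM in NT livers and 5.25, 3.23, 5.08 and 4.06 in NT kidneys on each organ's own scale. All livers lay far above all kidneys, and the log2 difference on the joint scale was 9.15 (adjusted p = 4.64e-09). In liver it reached more than the level of *H2-D1*, and in kidney it lay among the lowest tested members. *H2-Q1* was counted with 98 to 214 reads per NT liver and 1 to 5 reads per NT kidney. Its kidney counts are near the limit of 3 counts that a count of 0 allows (0.193 to 0.211 CPM), so its log2 difference of 6.81 depends on how low counts are treated. *H2-T23*, which encodes Qa-1, a ligand of the natural killer cell receptor NKG2A, had 115, 178, 129.8 and 84.7 CPM in NT kidneys and 210.4, 375, 177 and 77.2 in NT livers (log2 difference 1.72 on the joint scale, adjusted p = 2.86e-04). *H2-K2* was higher in liver by 1.6 (adjusted p = 6.70e-04) and *H2-T10* by 1.17 (adjusted p = 0.00277). *H2-Q2* was lower in liver, with a log2 difference of -1.29 (adjusted p = 0.0407), with 1.74 ± 0.663 CPM in kidney and 0.700 ± 0.625 in liver. That call was lost without kidney NT 3, without liver NT 1, 2 or 3, and in the 8 NT libraries alone (adjusted p = 0.0774), and held in the paired fit (adjusted p = 0.0325).

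**Figure D1:**
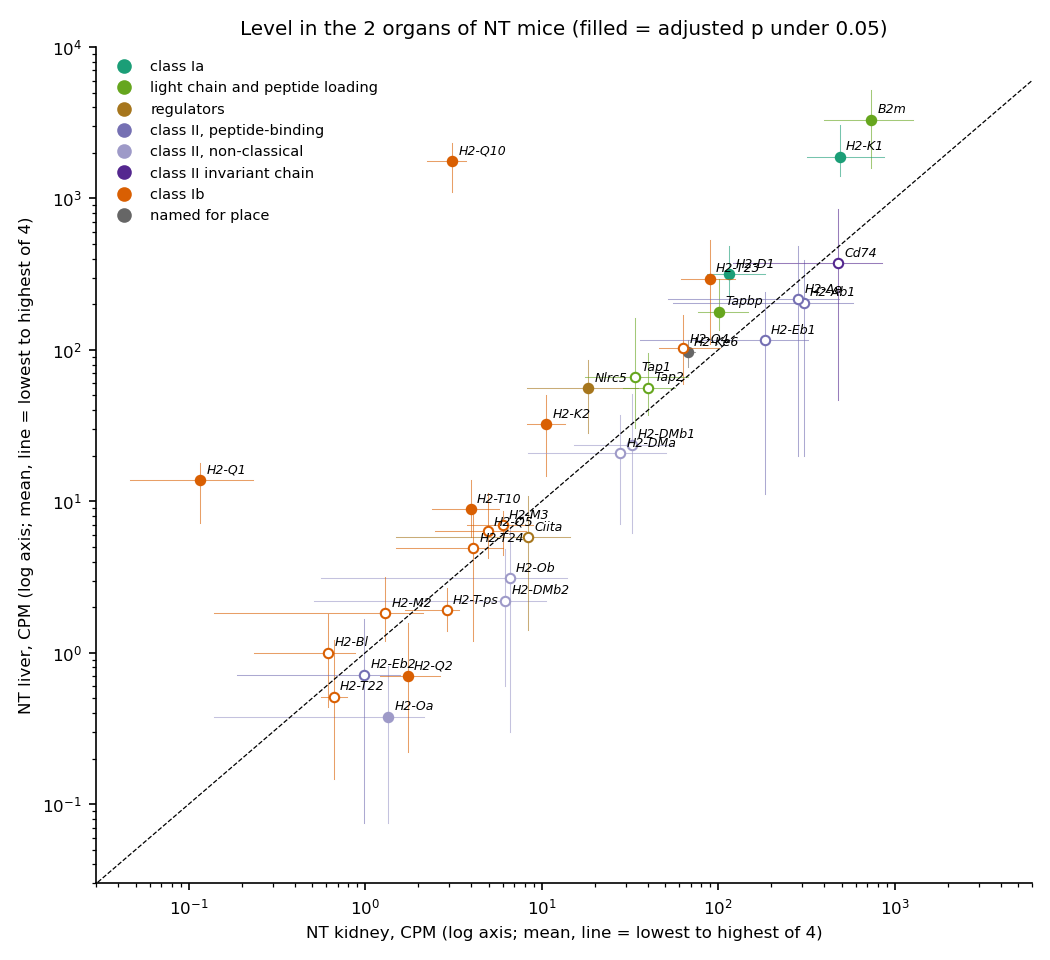
Each point is 1 of the 33 MHC and antigen presentation genes tested, with its mean CPM over 4 NT kidneys on the horizontal and over 4 NT livers on the vertical log axis, scaled over both organs; thin lines run from the lowest to the highest library, and filled points have an adjusted p under 0.05 between organs. *H2-Q10* and *H2-Q1* stand far above the dashed line of equal levels, *B2m*, *H2-K1* and *H2-D1* stand above it, and the class II genes lie below it with long lines.

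Class II genes had the opposite direction, and how many passed the test depended on the pairing of organs. Without a block all 10 were lower in NT livers than in NT kidneys in the fitted difference (median log2 difference -0.51), and *H2-Oa*, an inhibitor of peptide exchange found mostly in B cells, was the only 1 of the 10 past the threshold (-1.81, adjusted p = 0.0293), a call that was lost without kidney NT 1, 2 or 3 or without liver NT 1 or 4. *H2-Aa* differed by -0.40 (adjusted p = 0.648) and *Cd74* by -0.37 (adjusted p = 0.645). In the 8 NT libraries with the replicate block, which treats the organs as paired, the class II median was -0.91 and 2 of 9 passed (*H2-DMb2* and *H2-Ob*), while *H2-Aa* had -0.91 (adjusted p = 0.142), *H2-Ab1* -0.96 (0.0883) and *H2-Eb1* -1.12 (0.0651). With the block over all 16 libraries 5 of 10 passed, all lower in liver, *H2-Ab1* (adjusted p = 0.0341) and *H2-Eb1* (0.0221) among them, against 66.2% of all genes. That fit also pairs the shFos organs, whose same-numbered libraries correlated by 0.0150 to 0.172. Without the block and without kidney NT replicate 2, the differences of *H2-Aa* and *Cd74* were 0.0015 and 0.067, and without liver NT replicate 4 that of *Cd74* was 0.00266. In that fit without kidney NT replicate 2 the class II median was -0.16, and without liver NT replicate 4 it was also -0.16. *Ciita* had 12.4, 20.9, 12.2 and 2.06 CPM in NT kidneys and 1.78, 7.67, 5.93 and 1.0 in NT livers on each organ's own scale (log2 difference -0.53 on the joint scale, adjusted p = 0.474).

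Class II transcripts varied more between NT mice than most genes did. *H2-Aa* (ENSMUSG00000036594.15, chromosome 17, 34282744 to 34287823, - strand) had 433, 695, 413 and 72.0 CPM in NT kidneys 1 to 4 and 48.6, 206, 344 and 14 in NT livers 1 to 4. Replicate 4 was the lowest in both organs, and the highest was replicate 2 in kidney and replicate 3 in liver. *H2-Ab1* had 437, 828, 393 and 76.6 CPM in NT kidneys and 55.8, 236, 277 and 14 in NT livers. *Cd74*, the invariant chain, had 696, 1219, 649.8 and 168 and 91.5, 328, 605 and 32.8 CPM. *H2-Eb1* had 271, 461, 265 and 49.6 and 28.4, 123, 171 and 7.93 CPM. The SD of log2 CPM over the 4 NT libraries was above 1 in 8 of 10 class II genes in kidney (2.31% of all genes) and in 8 of 8 in liver (3.82% of all genes). The median ratio of the highest to the lowest library was 9.48 in kidney and 19.1 in liver for class II, against 1.34 and 1.59 for all genes.

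Library 4 carried much of this spread in kidney and only a share of it in liver. Without NT kidney 4, 0 of 10 class II genes had an SD above 1 (0.504% of all genes). Their median ratio was then 1.91, still above the 1.18 of all genes. Without NT liver 4, 6 of 8 still had an SD above 1 (2.15% of all genes), and the median ratio was 6.13, against 1.34 for all genes. The shFos libraries were closer together: 1 of 10 class II genes in kidney (*H2-DMb2* spanned 1.93 to 14.8 CPM) and 0 of 8 in liver had an SD above 1, and the median ratios were 1.84 and 2.17. Over all genes the shares were 1.38% and 0.844% and the median ratios 1.38 and 1.35. Whether the spread differed between treatments was not tested.

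The NT kidney lowest in class II was also lowest in B cell, T and NK cell, dendritic cell and macrophage markers. The NT liver highest in class II was highest in them. The sum of *H2-Aa*, *H2-Ab1*, *H2-Eb1* and *Cd74* was 1837, 3203, 1721 and 367 CPM in NT kidneys and 224, 893, 1397 and 68.7 in NT livers. In kidney the lowest library, NT 4, also had the lowest sums of 8 dendritic cell markers (13.6 CPM, range of the other NT kidneys 31.7 to 48.5), 12 T and NK cell markers (6.70, others 41.8 to 86.4), 13 macrophage markers (295, others 515 to 764) and 9 B cell markers (13.3, others 33.3 to 261). In liver the highest library, NT 3, also had the highest sums of B cell markers (94.5 CPM, others 10.9 to 21.6), macrophage and Kupffer cell markers (1995, others 389.9 to 1032) and dendritic cell markers (24.5, others 12.1 to 18.8). The pattern was not the same in every library: NT kidney 2, highest in class II, had 33.3 CPM of B cell markers against 261 in NT kidney 3, and NT liver 4, lowest in class II, had 1032 CPM of macrophage markers. The sum of 5 plasma cell markers went otherwise. It was 313 CPM in NT kidney 4 (others 300 to 444) and 514 in NT liver 3, the lowest of the NT livers (others 568 to 766). None of these markers was at 0 in all 4 libraries of an organ's NT group. The part of these cells in the class II levels was not tested.

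Class I was highest in NT replicate 2 in both organs. In kidney *H2-K1* and *H2-Aa* ranked the 4 NT libraries alike, while in liver class II was highest in NT 3. *H2-K1* (ENSMUSG00000061232.16, chromosome 17, 33996017 to 34000347, - strand) had 588, 1242, 499 and 438 CPM in NT kidneys and 1163, 2178, 1018 and 994 in NT livers. *B2m* (ENSMUSG00000060802.8, chromosome 2, 122147686 to 122153083, + strand) had 893, 1825, 901 and 546 and 2354, 3703, 2232 and 1128 CPM. *Tap1* had 35.0, 97.2, 35.5 and 24.4 and 21.8, 114, 30.9 and 21.6 CPM, so that replicate 2 lay far above the other 3 in each organ. *Tap1* overlaps its neighbour *Psmb9*, and unstranded reads from the overlap cannot be assigned to 1 of them. Reads that fit 2 genes of the counting annotation are left out as ambiguous. Other members also overlap annotated genes, among them *B2m*, *H2-T23*, *H2-Q4*, *Nlrc5*, *Tap2* and *Tapbp*. The sum of 25 interferon-inducible genes was 655, 1914, 701 and 363 CPM in NT kidneys and 1024, 3430.2, 1071 and 498 in NT livers, again highest in replicate 2 of both organs. Their part in the class I levels was not tested.

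**Figure D2:**
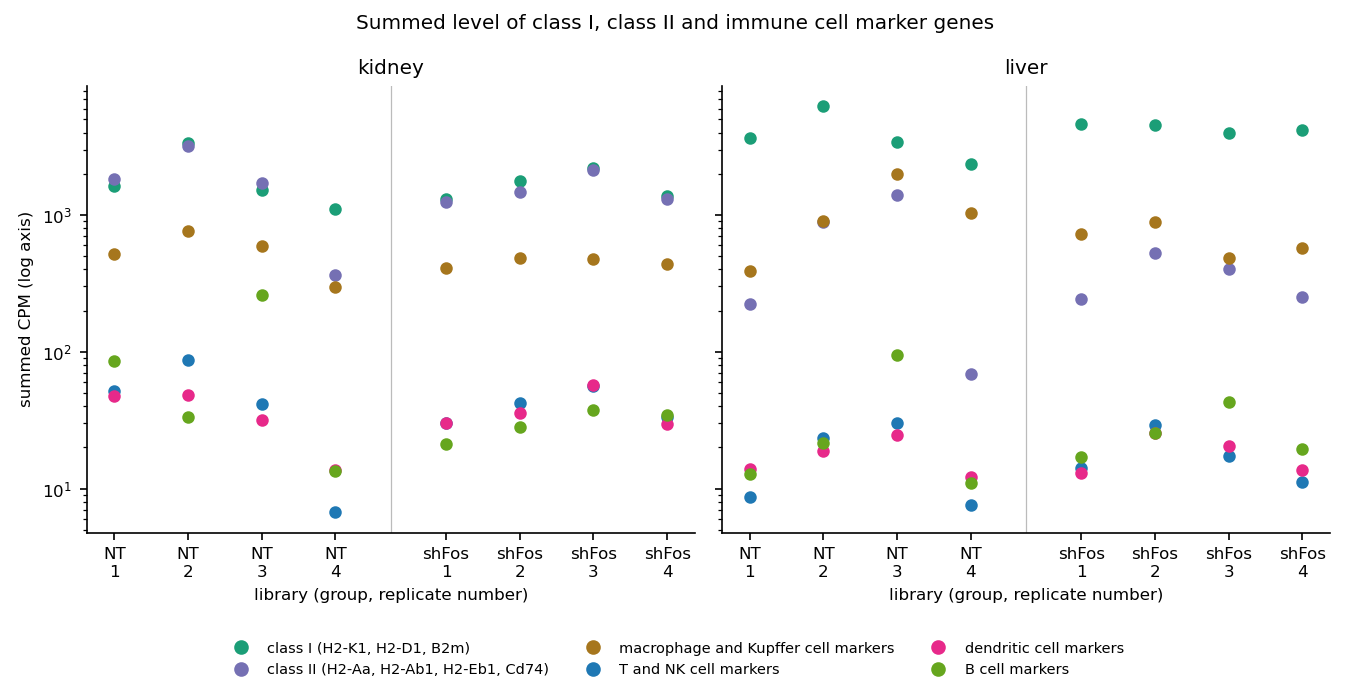
Summed CPM (log axis, scaled within each organ) of 3 class I genes, 4 class II genes and 4 lists of immune cell markers is plotted for each of the 16 libraries, kidney on the left and liver on the right. Class II falls to 367 CPM in NT kidney 4 and 68.7 CPM in NT liver 4, while shFos libraries lie at 1239 to 2126 CPM in kidney and 241 to 524 CPM in liver.

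The question of the main comparison was whether these genes differed between shFos and NT mice. In kidney 31 of the 41 genes had enough reads to be tested and in liver 28. The untested ones averaged at most 0.873 CPM in NT kidneys and 0.712 CPM in NT livers (*H2-Bl* in both).

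In kidneys given shFos, no MHC or antigen presentation gene passed the test, and most were lower. With edgeR and p-values adjusted over all genes, 0 of 31 genes differed, as did 0% of all 14892 genes (0 genes). At an unadjusted p under 0.05 there were 4 (*H2-K2*, *H2-T22*, *H2-Ke6* and *H2-T10*), all lower, which is a smaller share than the 31.9% of all genes and about that of genes that were lower at this level (14.8%). DESeq2 called 1 of the 31, *H2-K2*, and 17.9% of all genes. The log2 fold change was negative in 26 of 31 genes, with a median of -0.31 (all genes 0.0022). Without NT 2 that median was -0.084 and the class Ia median -0.083, and with GC correction and replicate block it was -0.072. Class Ia had a median of -0.46 (2 of 2 lower), class Ib -0.28 (9 of 12 lower), class II -0.28 (10 of 10 lower) and the light chain, loading and regulator genes -0.34 (4 of 6 lower). The groups of 4 libraries did not overlap in 2 of the 31 genes, *H2-K2* and *H2-T22*, both lower, against 17.2% of all genes in either direction and 8.04% lower.

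*H2-K2* (ENSMUSG00000067203.8, chromosome 17, 33974659 to 33978827, - strand), annotated as a transcribed unprocessed pseudogene beside *H2-K1*, had 14.6, 19.5, 14.7 and 11.3 CPM in NT kidneys and 10.1, 4.12, 4.29 and 4.30 in shFos kidneys. All shFos values lay below all NT values, and shFos 1 lay apart from the other 3 shFos kidneys. Its mean was 15.1 ± 3.37 CPM in NT and 5.71 ± 2.96 in shFos, a log2 fold change of -1.39 (SE 0.32, adjusted p = 0.0660, edgeR). The two-sided exact permutation test gave p = 0.0286, the smallest that 4 against 4 libraries allow. The adjusted p was 0.0021 in DESeq2 and 0.037 when all 16 libraries shared 1 estimate of spread, a fit that called 6.45% of all genes. Over all settings, each library left out included, it ran from 0.000955 to 0.192.

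Class I heavy chain genes and their pseudogenes resemble each other in sequence, and counting could shift reads between *H2-K2* and *H2-K1*. Reads of *H2-K2* made up 1.57% to 2.95% of those of *H2-K1* in NT kidneys (median 2.54%) and 0.619% to 2.36% in shFos kidneys (median 1.01%), so the ratio overlapped between the groups through shFos 1 and NT 2. In liver the ratio was 1.04% to 2.26% in NT and 2.08% to 2.59% in shFos. *H2-K1* itself had 429.8, 490.2, 693 and 367 CPM in shFos kidneys, within the range of the NT kidneys except for 2 lower values (log2 fold change -0.48, SE 0.34, adjusted p = 0.360, edgeR).

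*H2-T22* and *H2-T10* are closely related class Ib genes whose products are recognised by gamma-delta T cells, and the annotation lists *H2-T10* as a polymorphic pseudogene. *H2-T22* (ENSMUSG00000056116.18, chromosome 17, 36037128 to 36042747, - strand) was counted with 17, 12, 13 and 15 reads in NT kidneys and 7, 3, 4 and 0 in shFos kidneys. These are 1.12, 0.808, 0.846 and 0.966 CPM and 0.449, 0.199, 0.286 and 0 CPM, with no overlap (log2 fold change -1.93, SE 0.56, adjusted p = 0.0731, edgeR). At these counts 3 of the shFos libraries lie near the limit of 3 counts. *H2-T10* had 5.91, 8.21, 5.01 and 3.28 CPM in NT and 4.56, 2.53, 2.43 and 2.30 in shFos kidneys, overlapping through NT 4 and shFos 1 (log2 fold change -0.92, SE 0.33, adjusted p = 0.103, edgeR). Both overlap other annotated genes (*A930015D03Rik* for *H2-T22*, *Gm7030* and *BC023719* for *H2-T10*). Unstranded reads from an overlap cannot be assigned to 1 gene, and are left out as ambiguous where the counting annotation holds both genes.

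*H2-Ke6*, the dehydrogenase, had 91.6, 97.0, 88.4 and 102 CPM in NT kidneys and 88.9, 76.3, 78.4 and 76.4 in shFos kidneys, a small difference between tight groups (log2 fold change -0.24, SE 0.083, adjusted p = 0.0914, edgeR). After correction for GC content its log2 fold change was 0.0038. Leaving out shFos 1 brought *H2-K2*, *H2-T22*, *H2-T10* and *H2-Ke6* to adjusted p-values of 0.000955, 0.0195, 0.0206 and 0.0149 in edgeR, while 27.5% of all genes were then called.

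**Figure D3:**
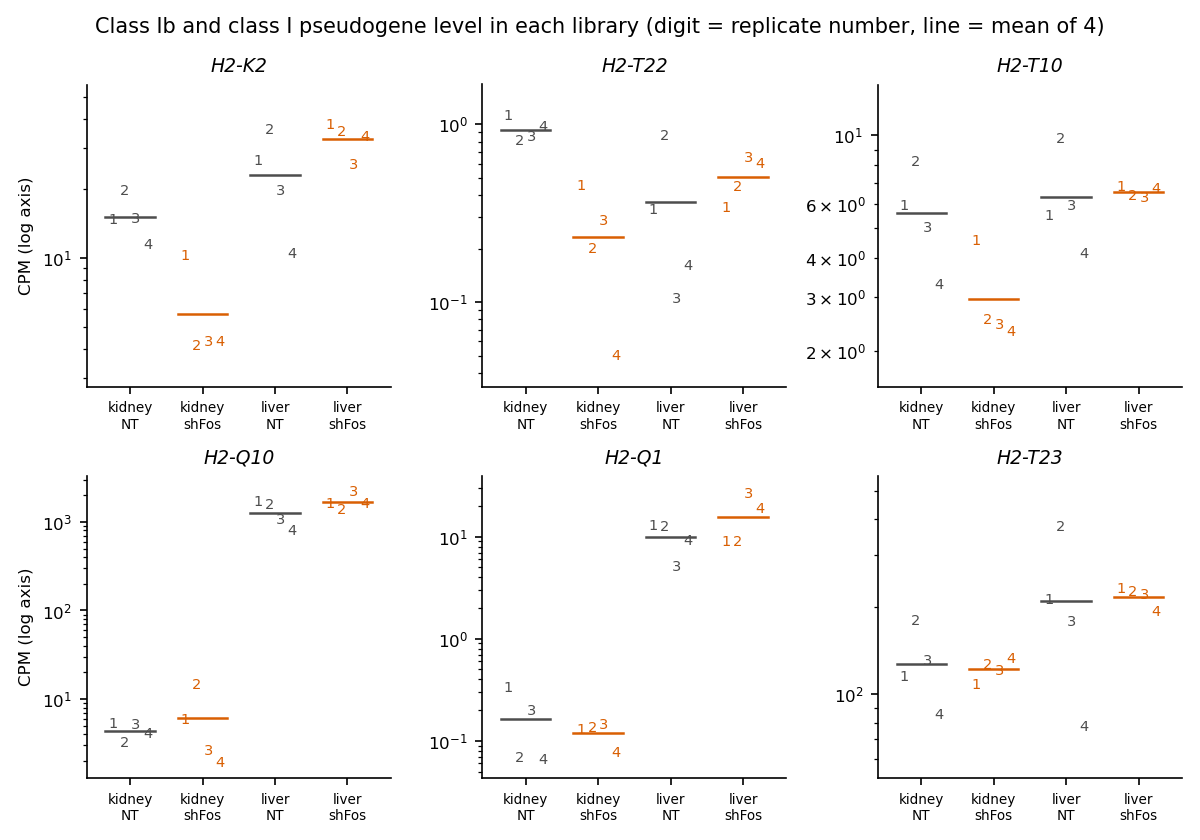
CPM of 6 class Ib genes (log axes, scaled within each organ) is plotted for every library as its replicate number, with a line at the mean of 4; the 0 of *H2-T22* in shFos kidney 4 is drawn at 0.05. *H2-K2* and *H2-T22* are lower in all 4 shFos kidneys than in all 4 NT kidneys, and their liver groups overlap.

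The class I loading genes *Tap1*, *Tap2* and *Tapbp* had lower means in shFos kidneys, with groups that overlapped. In each of them shFos 4 lay below all NT kidneys. The median of the light chain, loading and regulator genes was -0.34, and -0.11 without NT 2. *Tap1* had 27.3, 27.2, 39.7 and 20.2 CPM in shFos kidneys, which fall within the NT range apart from 1 lower value (log2 fold change -0.75, adjusted p = 0.245, edgeR). *Tap2* had 48.6, 81.7, 56.6 and 39.7 CPM in NT and 42.6, 47.8, 55.0 and 37.3 in shFos (-0.31, adjusted p = 0.347). *Tapbp* had 135, 212, 119 and 106 and 122, 115, 112 and 95 CPM (-0.36, adjusted p = 0.249). The NT means of all 3 were raised by replicate 2. *B2m* did not follow, with 759, 1145, 1371 and 929 CPM in shFos kidneys and a log2 fold change of 0.013 (SE 0.34). *Nlrc5*, the class I regulator, had 22.1, 50.6, 19.9 and 11.5 CPM in NT and 13.7, 12.3, 18.8 and 8.75 in shFos kidneys (-0.95, SE 0.42, adjusted p = 0.158, edgeR), with overlap through NT 4 and shFos 1 to 3. *H2-D1* had 137, 266, 132 and 119 and 119, 131, 138 and 90.7 CPM (-0.45, adjusted p = 0.266).

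Class II levels of shFos kidneys lay inside the range of the NT kidneys. *H2-Aa* had 291, 343, 524 and 326 CPM (log2 fold change -0.12, adjusted p = 0.894, edgeR) and *Cd74* 473, 574, 773 and 486 CPM (-0.25, adjusted p = 0.748). *H2-Ab1* had 282, 325, 512 and 284 CPM (-0.31, adjusted p = 0.732) and *H2-Eb1* 193, 218, 318 and 206 CPM (-0.16, adjusted p = 0.851). Every one of these shFos values was above NT 4 and below NT 2. *H2-Ob*, a subunit of the exchange inhibitor, had the lowest fold change of class II (-1.08, adjusted p = 0.303), with 9.66, 7.27, 19.6 and 0.773 CPM in NT and 4.17, 3.92, 5.5 and 4.07 in shFos. Beside this, 9 of 9 B cell markers were lower in shFos kidneys (median log2 fold change -2.07, 0 called by edgeR, 4 at an unadjusted p under 0.05 and lower against 14.8% of all genes), and their sum was 86.0, 33.3, 261 and 13.3 CPM in NT and 21.1, 28.3, 37.8 and 34.5 in shFos. Also lower were 9 of 10 macrophage markers (median -0.27) and 8 of 9 T and NK cell markers (-0.43), against 49.7% of all genes. Dendritic cell markers went the other way, with 6 of 8 higher (median 0.33). Of 4 plasma cell markers tested 3 were lower (median -0.030). The other, *Jchain*, was higher without overlap (92.8 ± 61.5 CPM in NT, 217 ± 46.3 in shFos, adjusted p = 0.230, edgeR), against 17.2% of all genes without overlap. The part of these cells in the class II values was not tested. *Ciita* had 8.73, 12.2, 24.8 and 11.6 CPM in shFos kidneys (0.27, adjusted p = 0.770).

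Which NT libraries were present decided the direction of class II in kidney. The class II median was -0.61 without NT 4 and 0.14 without NT 2. Under GC correction the class Ib median was -0.064. Without NT 4, 12 of 32 genes had an unadjusted p under 0.05, all lower, against 30.9% of all genes, and none passed the adjustment. Those 12 were *H2-K2*, *H2-Ob*, *H2-T10*, *H2-Bl*, *Nlrc5*, *H2-T22*, *H2-M3*, *H2-Oa*, *Tapbp*, *H2-Ke6*, *Tap1* and *Tap2*.

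In livers given shFos, no MHC or antigen presentation gene passed the test. edgeR called 0 of 28 and 0% of all 13144 genes (0 genes), and DESeq2 called 0 of 28 and 36 of all 13144 genes. At an unadjusted p under 0.05 there were 0 of 28 against 6.74% of all genes, and the groups did not overlap in 0 of 28 against 4.31% of all genes. The log2 fold change was positive in 15 and negative in 13 genes (median 0.033, all genes -0.012). Class Ib had a median of 0.18 (9 of 11 higher), class Ia -0.019, the light chain, loading and regulator genes -0.11, and class II -0.83 (6 of 8 lower).

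*H2-Q10* had 1669, 1538, 1053 and 784 CPM in NT and 1577, 1362, 2193 and 1573 in shFos livers (log2 fold change 0.41, SE 0.27, adjusted p = 0.752, edgeR). The groups overlapped, and the 2 lowest values were those of NT 3 and NT 4. *H2-Q1* had 12.8, 12.3, 5.10 and 9.15 and 8.86, 8.83, 26.2 and 18.5 CPM (0.67, SE 0.41, adjusted p = 0.749). *H2-K2* had 26.3, 35.9, 19.4 and 10.4 and 37.8, 35.3, 25.3 and 33.6 CPM (0.52, SE 0.32, adjusted p = 0.750). These 3 had the smallest p-values in liver and all were higher in shFos.

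*H2-K1* had 1459.6, 1535, 1221 and 1314 CPM in shFos livers, where NT livers had ranged from 994 to 2178 (log2 fold change 0.047, adjusted p = 0.977, edgeR). *B2m* had 2919.9, 2830.3, 2518 and 2659 CPM (0.21, adjusted p = 0.877) and *H2-D1* 226, 211, 231 and 181 CPM (-0.084, adjusted p = 0.946). *Tap1* had 40.1, 40.1, 27.8 and 32.0 CPM, all above NT 1 and NT 4 and below NT 2 (-0.43, adjusted p = 0.851). Without NT liver 2, 5 of 29 genes had an unadjusted p under 0.05 (*H2-Q5*, *H2-K2*, *Tap1*, *Tapbp* and *Tap2*), all higher in shFos, against 8.51% of all genes, and the class Ib median was 0.51.

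Class II in liver had the lowest medians of the comparison and the widest errors. *H2-Aa* had 48.6, 206, 344 and 14 CPM in NT and 55.7, 126, 95.9 and 61.2 in shFos livers (log2 fold change -0.85, SE 0.81, adjusted p = 0.806, edgeR). *Cd74* had 91.5, 328, 605 and 32.8 and 95.8, 210.2, 162 and 99.8 CPM (-0.90, SE 0.76, adjusted p = 0.792). In both, all shFos livers lay inside the NT range, above NT 4 and below NT 3. Without NT 3 the class II median was -0.12 and without NT 4 it was -1.21. Beside this, 13 of 13 macrophage and Kupffer cell markers were lower in shFos livers (median -0.68, 0 called by edgeR, 1 at an unadjusted p under 0.05 against 6.74% of all genes), and their sum was 389.9, 909.5, 1995 and 1032 CPM in NT and 727, 888, 485 and 573 in shFos. Also lower were 8 of 9 B cell markers (median -0.46) and 4 of 6 dendritic cell markers (-0.092), against 52.3% of all genes. T and NK cell markers went the other way, with 9 of 11 higher (median 0.29). The part of these cells in the class II values was not tested.

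**Figure D4:**
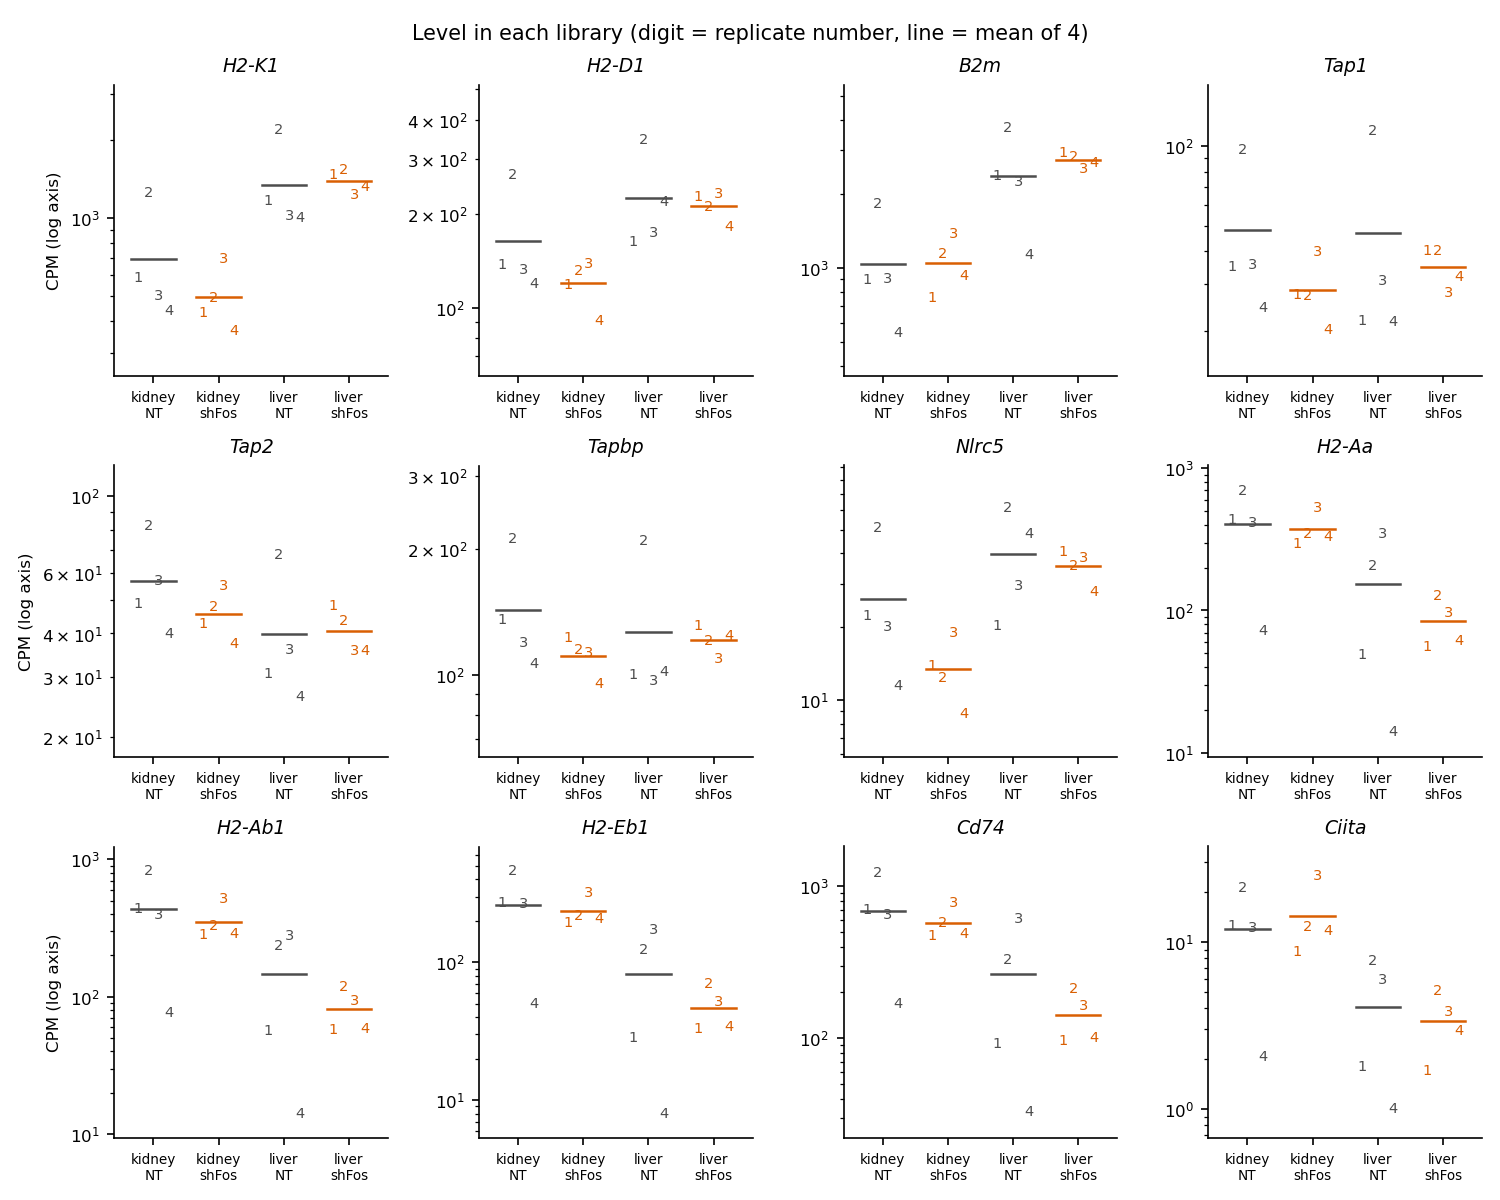
CPM of 12 core genes of class I and class II presentation (log axes, scaled within each organ) is plotted for every library as its replicate number, grey for NT and orange for shFos, with a line at the mean of 4. NT 2 is the highest NT library in *H2-K1*, *B2m* and *Tap1* of both organs, and NT 4 is the lowest NT library in *H2-Aa*, *H2-Ab1*, *H2-Eb1*, *Cd74* and *Ciita* of both organs.

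The response to shFos was then compared between the organs as an interaction in the fit of all 16 libraries, and none of the 33 genes passed the test (0 called by edgeR, 0% of all 15421 genes). At an unadjusted p under 0.05 there were 3, all with a higher response in liver, against 16.1% of all genes in either direction and 7.84% higher. *H2-K2* had an interaction of 1.92 on the log2 scale (SE 0.48, adjusted p = 0.179, edgeR), being lower in 4 of 4 shFos kidneys than in every NT kidney and overlapping in liver. DESeq2 gave it an adjusted p of 0.0209 and called 282 of all 15421 genes. Without shFos kidney 1 edgeR gave *H2-K2* an adjusted p of 0.00642 and called 1246 of all 15601 genes. *H2-T22* had 2.41 (adjusted p = 0.212, edgeR) and *H2-T10* 0.97 (adjusted p = 0.277, edgeR). The median over the 33 genes was 0.31 (all genes -0.0038).

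**Figure D5:**
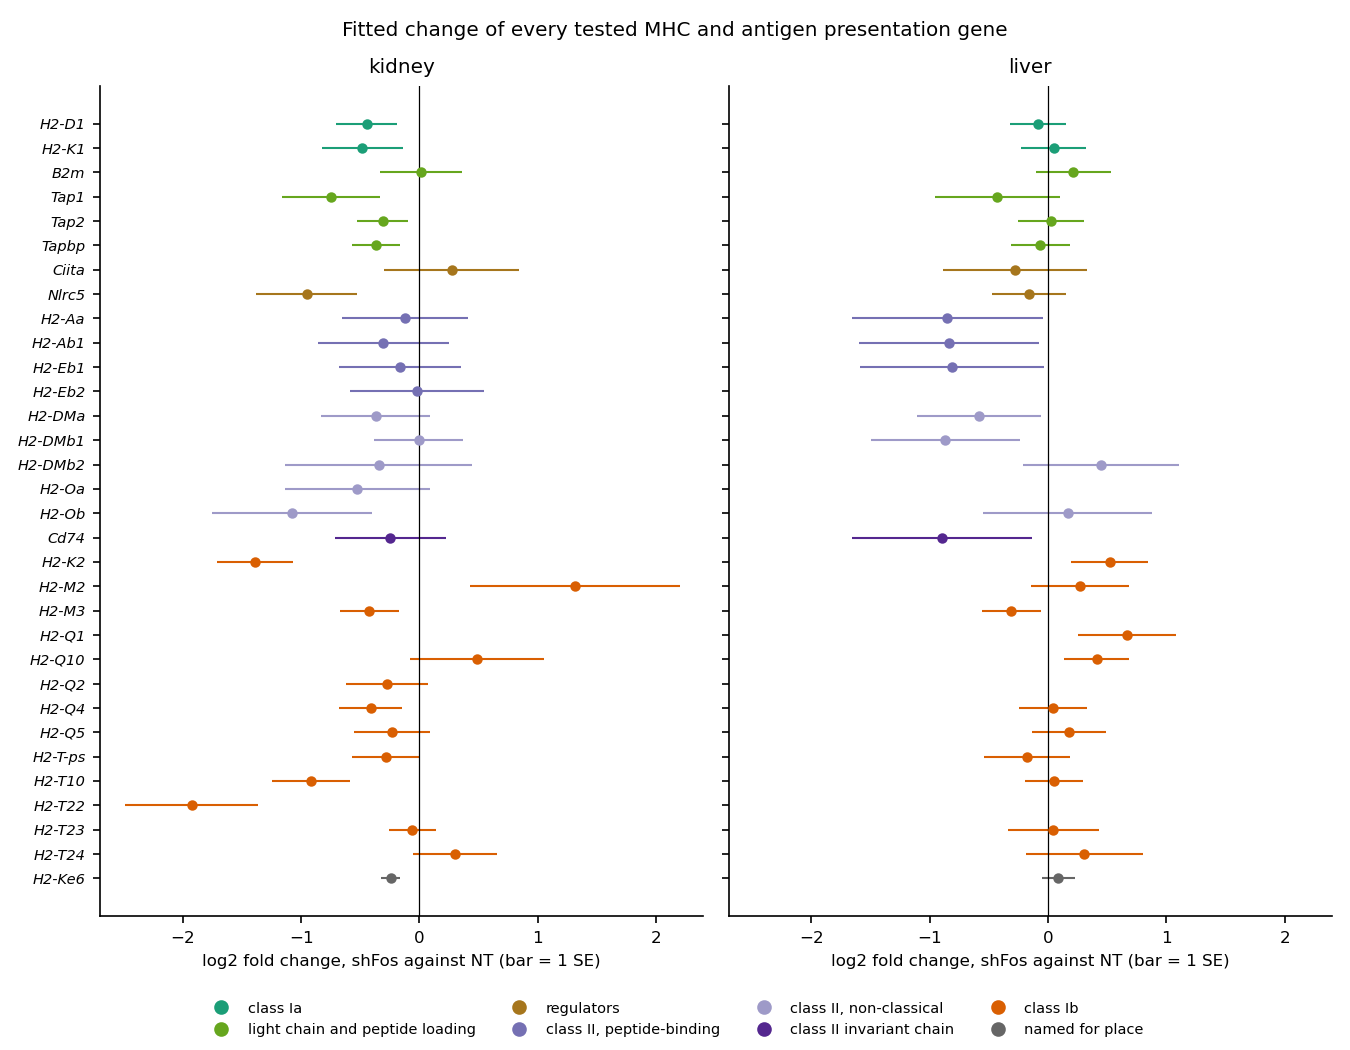
The log2 fold change of shFos against NT is plotted for each gene tested, 31 in kidney on the left and 28 in liver on the right, with a bar of 1 SE on each side and colours for the classes. Most kidney points lie to the left of 0, with *H2-T22* and *H2-K2* farthest. Of the 8 class II points of liver 6 lie to the left and 2 (*H2-DMb2* and *H2-Ob*) to the right, with wide bars.

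Genes that act beside the MHC in the same path were read from lists of the path's steps, and edgeR called none of them in either organ. Of the 6 chaperones of class I folding, 6 were higher in shFos kidneys (median log2 fold change 0.37) and 4 had an unadjusted p under 0.05, where 31.9% of all genes did and 17.1% were higher. *Canx* (calnexin), which holds new heavy chains, had 406 ± 50.1 CPM in NT and 556 ± 72.4 in shFos (log2 fold change 0.45, adjusted p = 0.0729, edgeR), *Pdia3* of the loading complex had 569 ± 64.1 and 757 ± 93.3 (adjusted p = 0.0812), and the glucosyltransferase *Uggt1* had 73.4 ± 5.07 and 92.7 ± 9.76 (adjusted p = 0.0712). In liver 5 of the 6 were lower (median -0.27), 1 of them at an unadjusted p under 0.05 (6.74% of all genes; *Uggt1*, log2 fold change -0.35, adjusted p = 0.731).

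The immunoproteasome and peptide trimming list had 0 of 7 genes at an unadjusted p under 0.05 in either organ (medians -0.33 in kidney and -0.07 in liver). Of 10 genes of class II peptide processing and turnover, 2 passed that level in kidney, a smaller share than the 31.9% of all genes. Both were higher, the ubiquitin ligase *March8*, which removes class II from the surface, with a log2 fold change of 0.38 and the protease *Ctsl* with 0.44 (adjusted p = 0.0734 and 0.0824, edgeR). In liver 1 of the 10 did, the tetraspanin *Cd9*, with 45.4 ± 9.97 CPM in NT and 28.3 ± 2.36 in shFos (adjusted p = 0.712, edgeR). Of 20 promoter factors and interferon regulators, 7 passed it in kidney, a share near the 31.9% of all genes, 3 higher (*Jak1*, a kinase of interferon receptors, 0.45) and 4 lower. Among the lower ones were *Rfxank*, a subunit of the X box factor RFX (15.0 ± 1.16 CPM in NT, 10.7 ± 1.78 in shFos, adjusted p = 0.0714, edgeR), and *Nfyc*, a subunit of the Y box factor NF-Y (105 ± 7.83 and 83.6 ± 10.5 CPM, adjusted p = 0.0781). In liver *Rfxank* was the 1 of 20 past that level and was higher (0.33, adjusted p = 0.731, edgeR).

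The genes whose levels were most like *H2-Aa* over the 8 libraries of an organ, by the correlation of their log2 CPM, were *H2-Eb1* (r = 0.999), *Fyb* (0.992), *H2-Ab1* (0.991), *P2rx7* (0.990) and *Cd300c2* (0.988) in kidney. In liver they were *H2-Eb1* (0.999), *Cd74* (0.996), *H2-Ab1* (0.993), *Asb2* (0.970) and *Oas2* (0.969). These are descriptions over 8 libraries that share depth and organ. They include NT 4, the lowest library for *H2-Aa* and *Ciita* in both organs, and are given only with it. *Ciita* had r = 0.973 with *H2-Aa* in kidney and 0.932 in liver, whereas *H2-K1* had 0.600 and 0.382 and *H2-K2* 0.037 and 0.463.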

How the data were processed

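The authors trimmed reads with Trimmomatic 0.39, aligned them to mm10 with HISAT2 2.2.1 and counted them per gene with HTSeq 0.12.4 without strand, and deposited raw read counts per gene for each of the 16 libraries. The annotation used for counting is not given in the sources used here. Of all reads 13.4% to 26.7% fell in no feature and 1.84% to 2.64% were ambiguous. These summary lines were left out of library sizes and tests.

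Genes were filtered with filterByExpr, scaled by TMM and tested with the quasi-likelihood test of edgeR 4.0.16 in R 4.3.3, with Benjamini-Hochberg adjustment over all genes tested and a threshold of 0.05. Each organ was fitted alone. The difference in response and the NT organs were tested in 1 fit of all 16 libraries. DESeq2 1.42.0, other scalings, filters, a correction for GC content, a replicate block and each library left out were the alternatives, and the block in the 8 NT libraries alone and a fit without robust estimation were added after seeing the data. Groups and replicate numbers came from the labels. P-values measure the spread between these samples. The members and gene lists were chosen with earlier results of these data known, and no list is supported by its own test. Genes named one by one were 12 core genes, the 3 with the smallest p in each comparison, the class Ib genes highest per kilobase, the 3 smallest p of each other list and the 5 most like *H2-Aa*, and further genes were named after their values were seen.

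Same-numbered NT kidneys and livers correlated in their deviations from the group means (r = 0.205, 0.386, 0.370 and 0.346, each highest with its own number), so the fits with a replicate block treated them as paired. The main organ contrast over all 16 libraries had no block. For shFos r was 0.0334, 0.172, 0.0150 and 0.0990, highest with its own number in 2 of 4. Whether they came from the same mouse is not stated. Gene positions and exon lengths came from GENCODE M21 (98.2% of 24984 symbols matched) and promoter windows from RefSeq. On simulated data the kidney test recovered 61.5% of 200 genes changed by a log2 of 1 among 14738 genes, and the liver test 42.0% of 200 among 13028. These counts were drawn independently for each gene and library, with no library that stood apart. Of the unchanged simulated kidney genes 4.61% had an unadjusted p under 0.05, against 31.9% of all genes in the real kidney libraries. The recovered shares are therefore not the power of the tests on these data.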

Additional observations from a re-analysis of the deposited data

Results flagged for a closer look

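The 20 genes named by rule were screened in each group of 4 libraries for 1 library far from the other 3. These 80 groups share the same 16 libraries and hold correlated genes, so they are not independent. Of the 80 groups 9 were found, where chance would give about 4 if they were independent. NT replicate 2 was the high library in 6 of them, all class I genes or loading genes. It had 2178 CPM of *H2-K1* in liver (the others 994 to 1163), 266 CPM of *H2-D1* in kidney (119 to 137), 147 CPM of *H2-Q4* in kidney (63.4 to 76.0) and 209 CPM of *Tapbp* in liver (96.5 to 102). *Tap1* stood apart in both organs, with 97.2 CPM in kidney (24.4 to 35.5) and 114 CPM in liver (21.6 to 30.9).

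The shFos kidney 1 was the high library in the other 3, which are 3 of the 4 genes with the smallest p-values of the kidney comparison. It had 10.1 CPM of *H2-K2* (the others 4.12 to 4.30), 88.9 CPM of *H2-Ke6* (76.3 to 78.4) and 4.56 CPM of *H2-T10* (2.30 to 2.53). In each it lay nearer to the NT kidneys than the other shFos kidneys did. *H2-Ke6* was in the screen only through its p in kidney and *H2-T10* only through its p in the interaction. *H2-K2* also entered by its level. That the 3 have small p-values thus partly reflects how the screened genes were chosen.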

How the results depend on the processing

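The count of genes called in shFos against NT kidneys was 0 in edgeR, 1 in DESeq2 (17.9% of all genes) and 1 in the fit of all 16 libraries (6.45%). With each library left out it was 0 to 4, and the 4 came without shFos 1 (27.5% of all genes). The interaction called 0, 1 in DESeq2 (282 of all 15421 genes), and 0 to 1 with each library left out. That 1 came without shFos kidney 1, where 1246 of all 15601 genes were called. With each library left out, genes at an unadjusted p under 0.05 numbered 3 to 12 in kidney and 0 to 5 in liver, and the class Ib median of liver ran from 0.020 to 0.51. Depth limits genes under about 1 CPM, such as *H2-T22* in kidney.

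NT and shFos libraries of the same number did not deviate together (r from -0.207 to 0.0615 in kidney and -0.285 to 0.0132 in liver), so they share only a number. The replicate block called 0 genes in kidney and 0 in liver, with 5 and 0 at an unadjusted p under 0.05. For the organ contrast, a replicate block over all 16 libraries called 20 genes in place of 13. With the replicate block the class II median was 0.029 in kidney (-0.28 without) and -0.16 in liver (-0.83 without). With the replicate block in kidney, and then with the block and the GC correction, the log2 fold change turned to 0.18 and 0.095 for *H2-Aa*, 0.044 and 0.23 for *H2-Ab1*, 0.14 and 0.17 for *H2-Eb1*, and 0.015 and 0.18 for *Cd74*. In liver *Tapbp* turned to 0.020 and 0.00983. *B2m* in kidney turned to -0.19 under GC correction, -0.060 with block and GC correction, and -0.0479 under upper-quartile scaling. *H2-Ke6* turned to 0.0038 and 0.0034, and *H2-T23* to 0.056 and 0.092, under GC correction without and with the block. The cause was not tested.

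With each library left out, fold changes that crossed 0 in kidney ran from -0.20 to 0.42 for *B2m*, -0.57 to 0.18 for *Cd74*, -0.13 to 0.68 for *Ciita*, -0.47 to 0.27 for *H2-Aa*, -0.65 to 0.21 for *H2-Ab1*, -0.51 to 0.25 for *H2-Eb1*, -0.36 to 0.77 for *H2-Q10* and -0.21 to 0.14 for *H2-T23*. In liver they ran from -0.027 to 0.51 for *B2m*, -0.62 to 0.19 for *Ciita*, -0.22 to 0.19 for *H2-D1*, -0.081 to 0.38 for *H2-K1*, -0.018 to 0.18 for *H2-Ke6*, -0.15 to 0.39 for *H2-Q4*, -0.12 to 0.32 for *H2-T10*, -0.24 to 0.47 for *H2-T23*, -0.38 to 0.12 for *Nlrc5*, -0.68 to 0.49 for *Tap1*, -0.14 to 0.39 for *Tap2* and -0.18 to 0.28 for *Tapbp*. Between organs they ran from -1.18 to 0.067 for *Cd74* and -1.17 to 0.0015 for *H2-Aa*.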

Other observations

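Genes beside the MHC also differed between NT organs in the fit of all 16 libraries. The immunoproteasome and peptide trimming list had 6 of 7 genes higher in liver by edgeR (median log2 difference 1.32), and the class I folding list 6 of 6 (median 1.34), where 64.7% of all genes differed and 30.2% were higher in liver. Of 13 macrophage and Kupffer cell markers 11 were higher in liver (median 1.55), and of 9 B cell markers 0 differed. These differences also depend on the joint scaling. On each organ's own scale the folding list summed to 2066 to 2865 CPM in NT kidneys and 2548 to 3933 in NT livers. The immunoproteasome and trimming list summed to 350 to 630 and 378 to 773 CPM. *Canx* had the higher mean in kidney on that scale (406 and 305 CPM in liver), and *Pdia3* the higher mean in liver (569 and 660).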
